A study of Mus musculus with 8 samples.

Results

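Aquaporins are membrane channels through which water crosses cell membranes, and this text follows the 8 members Aqp1, Aqp3, Aqp4, Aqp5, Aqp7, Aqp8, Aqp9 and Aqp11 in mouse colon. They were taken by gene name from a table of 18262 genes, and each name matched 1 row. The DSS + GAA group holds 4 colon libraries of wild-type mice. These mice had colitis after dextran sulfate sodium (DSS), which damages the lining of the colon, and were treated with ganoderic acid A (GAA) at 20 mg/kg. GAA is a triterpenoid made by Ganoderma fungi. The DSS group holds 4 libraries from colon of wild-type mice with DSS colitis and no GAA. All 8 libraries therefore come from mice given DSS, and no healthy level was analysed here. Both groups carry replicate numbers 1, 2, 4 and 5. The treatment labels of the GAA libraries read 20, 21, 22 and 23 mg/kg where every other label gives 20 mg/kg, so they were kept as 1 group. Nothing in the labels ties the libraries to separate animals, so p-values here cover the spread between these samples, which may be technical. Strain, age and sex are not given there.

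In the gut, most water follows salt: epithelial cells move sodium and chloride across the wall, and water passes between the cells and through channels in their membranes. Orthodox aquaporins such as Aqp1, Aqp4, Aqp5 and Aqp8 pass mainly water. The aquaglyceroporins Aqp3, Aqp7 and Aqp9 also pass glycerol, and Aqp8 and some others let hydrogen peroxide through. Aqp11 is an unorthodox member found in membranes inside the cell. In colon, Aqp8 is known from surface epithelial cells, Aqp3 and Aqp4 from the basolateral side of epithelial cells, and Aqp1 from blood vessel endothelium. In other tissues Aqp7 is known from fat cells, Aqp9 from liver and white blood cells, and Aqp5 from glands.

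Aqp8 and Aqp1 were the members that passed the test between the groups, in opposite directions, and the stretch before the start of each is shown for that reason. Sequences are from RefSeq on GRCm38.p6 and cover the 250 bases before the annotated start, read 5′ to 3′ on the plus strand, on which both genes lie. The Aqp8 stretch is chr7:123462044-123462293 and the Aqp1 stretch is chr6:55336049-55336298. Capitals mark matches to a set of short motifs searched on both strands. AGGTCA is the core bound by nuclear receptors such as RORA, which the study names as the target of GAA. TTTAT is the core bound by CDX factors of the intestine, and the letters GATAA are those bound by GATA factors. Promoter elements were searched as TATAAA for the TATA box, as CCAAT for the element of that name, and as GGGCGG for the GC box.
Aqp8: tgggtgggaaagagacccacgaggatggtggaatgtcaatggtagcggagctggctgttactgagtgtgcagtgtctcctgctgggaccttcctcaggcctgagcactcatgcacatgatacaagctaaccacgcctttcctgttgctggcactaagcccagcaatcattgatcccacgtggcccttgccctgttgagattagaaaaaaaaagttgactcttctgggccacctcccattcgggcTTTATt
Aqp1: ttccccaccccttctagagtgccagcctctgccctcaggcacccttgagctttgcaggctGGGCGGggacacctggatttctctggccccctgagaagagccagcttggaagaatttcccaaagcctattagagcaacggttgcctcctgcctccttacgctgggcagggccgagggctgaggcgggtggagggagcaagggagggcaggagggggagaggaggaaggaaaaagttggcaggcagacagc
The Aqp8 stretch held TTTAT once, starting at -6 from the annotated start, and the Aqp1 stretch held GGGCGG once, starting at -190. TTTAT occurs in 37.2% of the 32536 stretches of the same length in that table, and GGGCGG in 33.0%. AGGTCA occurs in 14.0% of all stretches and was in neither of these. Among the 7 members searched, AGGTCA was in the stretches before Aqp7 and Aqp11. The remaining shares were 22.5% for the GATA core, 12.3% for the TATA box and 33.8% for the CCAAT element. The CDX core and the TATA box can overlap on opposite strands, as they did before Aqp3. The GC content was 52.4% before Aqp8 and 62.0% before Aqp1, against a median of 52.4% over all stretches. A match is a string of letters and says nothing about binding.

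Values are in TPM as the authors deposited them, a unit that scales reads by transcript length and by the library total. Every library adds up to the same total, so sequencing depth is unknown and no detection floor can be given. Genes with at least 1 TPM in at least 4 libraries were tested with limma on log2(TPM + 1), and an adjusted p under 0.05 over all 14217 tested genes counts as passing. Changes of genes with low values are understated on this scale. Of the 8 members, 4 passed this filter (Aqp1, Aqp4, Aqp8 and Aqp11) and 4 did not (Aqp3, Aqp5, Aqp7 and Aqp9). Of the 4 tested, 1 was higher, 1 was lower and 2 did not pass, where 5.96% of all tested genes were higher, 28.2% were lower and 34.1% passed in either direction. The median tested gene had a log2 fold change of -0.25, so a gene at 0 stood above it. On TPM as deposited, limma called 847 genes higher and 4006 lower, while rescaling the libraries by a trimmed mean gave 1890 higher and 1649 lower. The groups overlapped for every member, while 32.9% of tested genes had groups that did not overlap. For single members a two-sided exact permutation test was run over the 70 ways to assign libraries, which can reach 0.0286 at the smallest. The libraries carry the colon label, and posterior Hox genes, which mark the hind part of the body, summed to 257 to 522 TPM in DSS + GAA and 284 to 321 TPM in DSS. These sums rest mostly on a few abundant genes. Of the 8 Hox genes tested, 1 was higher, 3 were lower and 4 did not pass. Hoxb13, the most abundant, did not pass (log2 fold change 0.59, limma adjusted p = 0.0836), and Hoxd9 was lower (-1.42, limma adjusted p = 0.00585). In tissue RNA, more or fewer cells of a type and more or less RNA per cell cannot be told apart.

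Aqp8, a water channel of surface colonocytes (ENSMUSG00000030762, GRCm38 chromosome 7, 123462291 to 123468004, plus strand), was higher in DSS + GAA colon. It measured 912, 764, 337 and 838 TPM in DSS + GAA replicates 1, 2, 4 and 5, against 149, 157, 375 and 198 TPM in DSS replicates 1, 2, 4 and 5. Of the DSS + GAA libraries, 3 lay above every DSS library, and the ranges met because DSS + GAA replicate 4 was below DSS replicate 4. The means were 713 ± 257 TPM in DSS + GAA and 220 ± 106 TPM in DSS (SD, n = 4 each), a ratio of 3.25. The log2 fold change was 1.70 ± 0.38 (SE, limma adjusted p = 0.0111), and the exact permutation p was 0.0571. By mean TPM, Aqp8 ranked 178 of all listed genes in DSS + GAA and 687 in DSS. Aqp8 passed under all 18 alternative settings, with log2 fold changes of 1.45 to 2.03 and limma adjusted p of 0.0106 to 0.0417.

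Aqp4, a channel of high water permeability (ENSMUSG00000024411, chromosome 18, 15389496 to 15410982, minus strand), was also abundant but did not pass. Its gene overlaps an antisense gene, AC133525.2, and reads of the pair cannot be separated without strand information. It measured 83.3, 360.5, 590 and 643 TPM in DSS + GAA replicates 1, 2, 4 and 5, against 248, 222, 377 and 348 TPM in DSS replicates 1, 2, 4 and 5. DSS + GAA replicate 1 was below every DSS library, replicates 4 and 5 were above every one, and replicate 2 lay within the DSS range. The log2 fold change was 0.16 ± 0.57 (limma adjusted p = 0.842, 95% interval -1.13 to 1.46), and the exact permutation p was 0.914. Without DSS + GAA replicate 1 the log2 fold change was 0.82 (limma adjusted p = 0.0289). It was -0.12 without DSS + GAA replicate 4 (adjusted p = 0.895) and -0.16 without replicate 5 (adjusted p = 0.851), so the direction for Aqp4 turned with single libraries.

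**Figure D1:**
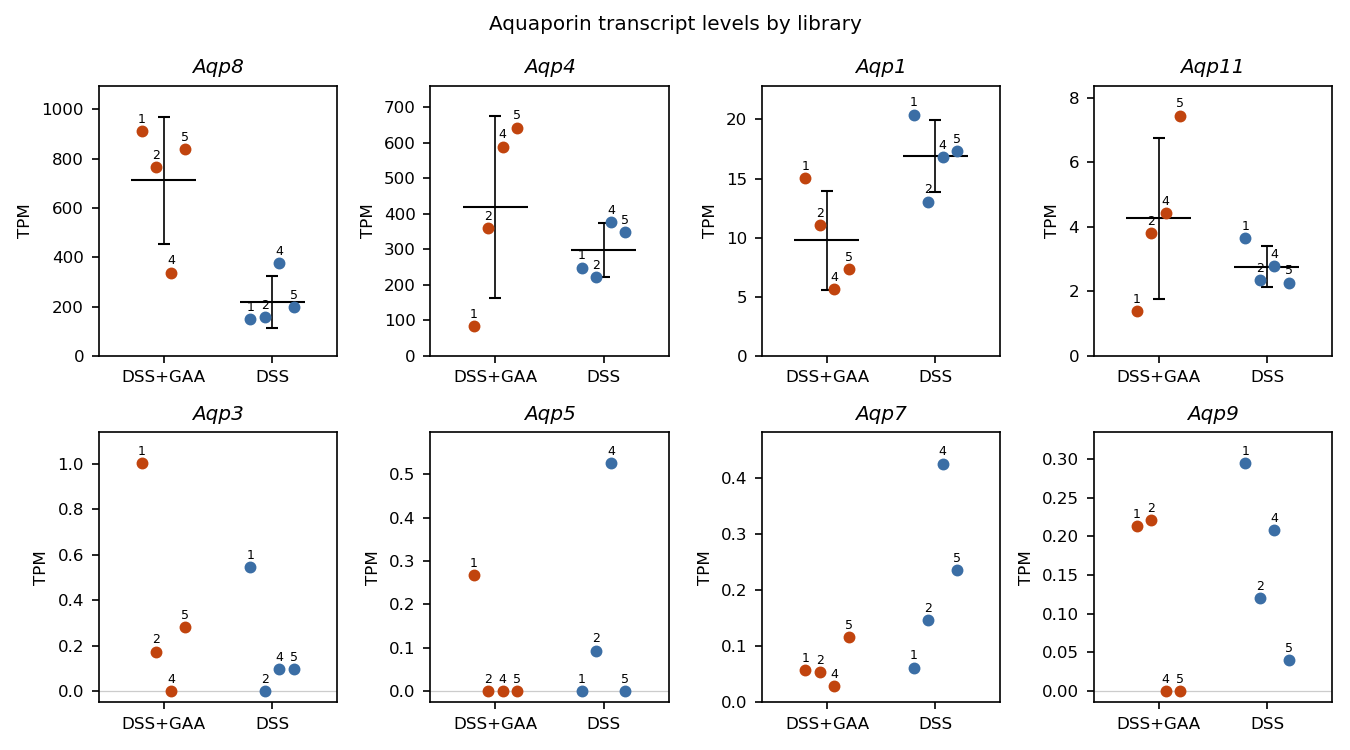
TPM of each aquaporin by library, with DSS + GAA in orange and DSS in blue; the y axis differs between panels and the digits are replicate numbers. For the 4 tested genes the bar is the mean and the whiskers are SD (n = 4). Aqp8 is mostly higher and Aqp1 mostly lower in DSS + GAA, Aqp4 and Aqp11 are lowest in DSS + GAA replicate 1, and the lower row lies near 0.

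Aqp1, the channel of endothelium and red blood cells (ENSMUSG00000004655, chromosome 6, 55336432 to 55348555, plus strand), was lower in DSS + GAA on TPM as deposited. It measured 15.1, 11.04, 5.65 and 7.36 TPM in DSS + GAA replicates 1, 2, 4 and 5, against 20.4, 13.0, 16.8 and 17.3 TPM in DSS replicates 1, 2, 4 and 5. DSS + GAA replicate 1 lay above DSS replicate 2, and the other 3 DSS + GAA libraries lay below every DSS library. The means were 9.78 ± 4.18 TPM in DSS + GAA and 16.9 ± 3.01 TPM in DSS (SD, n = 4 each). The log2 fold change was -0.80 ± 0.27 (limma adjusted p = 0.0467), which is -0.55 relative to the median tested gene, and the exact permutation p was 0.0571. The call was held under 6 of 18 alternative settings and lost under 12, among them trimmed mean scaling (-0.54, adjusted p = 0.174), quantile normalization (-0.43, adjusted p = 0.222) and median centring (-0.50, adjusted p = 0.199). It was also lost when any library other than DSS + GAA replicate 1 was left out (limma adjusted p of 0.0522 to 0.130), while the sign stayed negative in all 18.

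Aqp11, the intracellular member (ENSMUSG00000042797, chromosome 7, 97724006 to 97738289, minus strand), was present at low level and did not pass. It measured 1.38, 3.80, 4.43 and 7.44 TPM in DSS + GAA replicates 1, 2, 4 and 5, against 3.65, 2.35, 2.78 and 2.27 TPM in DSS replicates 1, 2, 4 and 5. DSS + GAA replicate 1 was the lowest of the 8 libraries, as it was for Aqp4. The other 3 DSS + GAA libraries lay above every DSS library for Aqp11. The log2 fold change was 0.36 ± 0.34 (limma adjusted p = 0.438, 95% interval -0.41 to 1.14; exact permutation p = 0.371). Without DSS + GAA replicate 1 it was 0.70 (limma adjusted p = 0.0376).

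The remaining 4 members stood near 0 in both groups. Aqp3, an aquaglyceroporin known from colonic epithelium (chromosome 4, 41092722 to 41098183, minus strand), was listed at 1.00, 0.173, 0 and 0.280 TPM in DSS + GAA replicates 1, 2, 4 and 5, against 0.544, 0, 0.097 and 0.095 TPM in DSS replicates 1, 2, 4 and 5. In the same libraries 12 of 12 epithelial marker genes were tested, and Epcam, the epithelial adhesion molecule, had 1930 to 2655 TPM in DSS + GAA and 1435 to 1931 TPM in DSS. Aqp3 was thus at or below about 1 TPM in libraries rich in epithelial RNA. Aqp7, the glycerol channel of fat cells, lies on the same chromosome and strand (41033074 to 41048139) and was listed at 0.057, 0.054, 0.029 and 0.116 TPM in DSS + GAA, against 0.062, 0.147, 0.426 and 0.236 TPM in DSS. Its groups overlapped at DSS replicate 1, and the exact permutation p was 0.0571. Of 5 tested adipocyte marker genes 2 were lower and 0 higher, where 28.2% of all tested genes were lower and 5.96% higher. The adipocyte list summed to 45.9 to 164 TPM in DSS + GAA and 345 to 551 TPM in DSS, with none of its 10 genes at 0 in all libraries. Most of that sum was Fabp4, a fatty acid binding protein that endothelium also makes. Their part in the Aqp7 values was not tested. Aqp9, of liver and white blood cells (chromosome 9, 71110659 to 71168682, minus strand), was listed at 0.213, 0.221, 0 and 0 TPM in DSS + GAA, against 0.295, 0.120, 0.208 and 0.040 TPM in DSS (exact permutation p = 0.514). Of the 13 tested neutrophil genes 10 were lower in DSS + GAA and 0 higher, where 28.2% of all tested genes were lower and 5.96% higher. Of the 10, Ngp and Camp passed the filter only through the DSS libraries, so their direction was set by the filter. Ngp had 0 to 0.25 TPM in DSS + GAA and 12.6 to 107 TPM in DSS, and Camp 0.403 to 0.954 TPM and 1.25 to 4.60 TPM. S100a9, a calcium-binding protein of neutrophils, was among the lower, at 93.8 ± 58.4 TPM in DSS + GAA and 2074 ± 992 TPM in DSS (SD, n = 4 each, limma adjusted p = 0.00425). Ltf leaned the other way without passing, at 184 ± 120 TPM in DSS + GAA and 64.2 ± 27.7 TPM in DSS (log2 fold change 1.34, limma adjusted p = 0.0665). The list summed to 1414 to 4413 TPM in DSS + GAA and 4666 to 11053 TPM in DSS, and most of the DSS + GAA sum was Ly6g, at 1137 to 3659 TPM there and 2441 to 4470 TPM in DSS. The part of these cells in the Aqp9 values was not tested. Aqp9 shares positions with the antisense gene Gm32511 and the pseudogene Gm47268. Aqp5, the gland channel (chromosome 15, 99590782 to 99594829, plus strand), was listed at 0.268 TPM in DSS + GAA replicate 1 and at 0 in the other 3, against 0, 0.093, 0.526 and 0 TPM in DSS (exact permutation p = 0.714). Of the 7 gland and stomach marker genes in the table, 6 were under 1 TPM in every library. The exact permutation p of Aqp3 was 0.571, and its difference on the log2(TPM + 1) scale was 0.17, or -0.03 without DSS + GAA replicate 1.

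In the authors' deposited table, at a false discovery rate under 0.05, Aqp3, Aqp4, Aqp8 and Aqp11 were higher, Aqp7 was lower, and Aqp1, Aqp5 and Aqp9 were not called, where 10.3% of all listed genes were higher and 16.2% lower. The authors' deposited table gives Aqp8 a log2 fold change of 1.70 (false discovery rate 2.37e-09), Aqp4 0.49 (0.0402), Aqp11 0.63 (0.0130), Aqp3 0.98 (0.0127) and Aqp7 -1.75 (0.0132). Aqp1, which passed limma, has -0.79 (0.257) in the authors' deposited table. Calls for Aqp1, Aqp4 and Aqp11 thus differed between the authors' deposited table and limma. Aqp3 and Aqp7, called in the authors' deposited table, were not called by limma when the filter was dropped so that they were tested (adjusted p = 0.580 for Aqp3 and 0.135 for Aqp7).

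Aqp8 and Aqp4 made up nearly all aquaporin TPM, and the balance between them differed by library. The 8 members summed to 1013, 1140, 937 and 1496 TPM in DSS + GAA replicates 1, 2, 4 and 5, against 423, 395, 773 and 565 TPM in DSS replicates 1, 2, 4 and 5. All 4 DSS + GAA sums lay above the DSS sums, at 0.0937 to 0.150% of all TPM in DSS + GAA and 0.0395 to 0.0773% in DSS. Aqp8 held 90.0, 67.0, 36.0 and 56.0% of the family in DSS + GAA, against 35.3, 39.7, 48.5 and 34.9% in DSS. Aqp4 held 8.22, 31.6, 62.9 and 43.0% in DSS + GAA, against 58.8, 56.3, 48.8 and 61.5% in DSS. The ratio of Aqp8 to Aqp4, which library scaling does not move, was 10.9, 2.12, 0.572 and 1.30 in DSS + GAA and 0.601, 0.705, 0.994 and 0.568 in DSS. Aqp4 was the more abundant transcript in all 4 DSS libraries, and Aqp8 in 3 of 4 DSS + GAA libraries. The ratio of Aqp8 to Aqp1 was 59.7 to 114 in DSS + GAA and 7.32 to 22.3 in DSS. The sums and ratios were formed after the values were seen and were not tested.

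**Figure D2:**
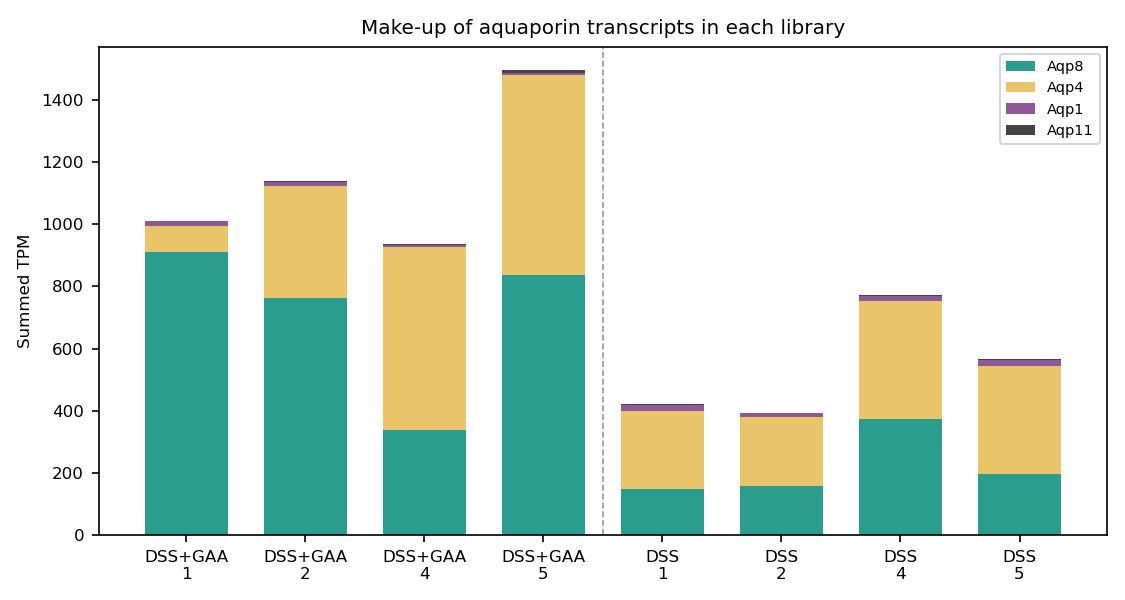
Summed TPM of Aqp8, Aqp4, Aqp1 and Aqp11 in each library, DSS + GAA left of the dashed line and DSS right of it; the 4 members near 0 are left out because they could not be seen. All 8 members together sum to 937 to 1496 TPM in DSS + GAA and 395 to 773 TPM in DSS, and Aqp8 fills between 36.0 and 90.0% of a DSS + GAA bar.

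Each tested member was set against marker genes of chosen cell types, within the same library. The value is log2(TPM + 1) of the member minus the mean log2(TPM + 1) of the list, and 7 such comparisons were made with the two-sided exact permutation test (smallest p 0.0286, adjusted over the 7 where given). Aqp8 minus the 12 epithelial genes averaged -0.04 ± 0.73 in DSS + GAA and -1.41 ± 0.51 in DSS (SD, n = 4 each), a difference of 1.37 (exact p = 0.0571, adjusted 0.1). Against 14 surface colonocyte genes it averaged 0.31 ± 0.61 in DSS + GAA and -0.71 ± 0.43 in DSS, a difference of 1.02 (exact p = 0.0571, adjusted 0.1). The epithelial list itself had 4 genes higher and 0 lower of 12, and summed to 14179 to 16682 TPM in DSS + GAA and 10783 to 13231 TPM in DSS. The surface colonocyte list had 6 higher and 0 lower of 14, and summed to 41698 to 59661 TPM in DSS + GAA and 26053 to 48049 TPM in DSS. Over all tested genes, 5.96% were higher and 28.2% lower. Aqp8 thus lay higher against both lists on average, with 3 of 4 DSS + GAA libraries above every DSS library in each.

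Genes of blood vessels, which carry Aqp1, were set beside it. Of 12 endothelial genes, 10 were lower and 0 higher in DSS + GAA, with a median log2 fold change of -1.10, where 28.2% of all tested genes were lower, 5.96% were higher and the median was -0.25. They summed to 48.7 to 189 TPM in DSS + GAA and 194 to 306 TPM in DSS. Pecam1, the endothelial adhesion molecule, was 22.3 ± 12.2 TPM in DSS + GAA and 47.4 ± 11.9 TPM in DSS (SD, n = 4 each; log2 fold change -1.18, limma adjusted p = 0.0343), and Emcn, an endothelial mucin, was 6.32 ± 3.47 TPM in DSS + GAA and 22.3 ± 8.88 TPM in DSS (-1.73, limma adjusted p = 0.0110). Aqp1 minus the endothelial list averaged 0.36 ± 0.17 in DSS + GAA and 0.03 ± 0.18 in DSS (difference 0.33, exact p = 0.0571, adjusted 0.1), so it lay no lower against those genes. All 5 tested red blood cell genes were lower in DSS + GAA, and the list summed to 9.88 to 63.6 TPM in DSS + GAA and 191 to 388 TPM in DSS, with haemoglobin copies that share reads. Against that list Aqp1 averaged 1.85 ± 0.21 in DSS + GAA and 0.86 ± 0.27 in DSS, with groups that did not overlap (difference 0.99, exact p = 0.0286, adjusted 0.1). The part of vessel and blood content in the Aqp1 result was not tested.

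For Aqp4 the comparison with markers followed DSS + GAA replicate 1. The Aqp11 comparison did not rest on that library alone. Its difference between the groups was 0.29 once that library was dropped, but -0.21 when replicate 5 of the same group was dropped instead. Aqp4 minus the epithelial list was -2.82, -0.97, -0.29 and -0.19 in DSS + GAA replicates 1, 2, 4 and 5, against -0.95, -1.34, -0.69 and -0.60 in DSS replicates 1, 2, 4 and 5 (difference -0.17, exact p = 0.914, adjusted 1.0). Glia carry Aqp4 in some tissues, and whether enteric glia do so here was not tested. Against 10 enteric glia genes, Aqp4 averaged 6.18 ± 1.64 in DSS + GAA and 5.27 ± 0.42 in DSS (difference 0.91, exact p = 0.343, adjusted 0.480). Of the 7 tested glia genes 5 were lower in DSS + GAA and 0 higher, where 28.2% of all tested genes were lower and 5.96% higher. Cdh19 was among the lower, at 5.64 ± 1.81 TPM in DSS + GAA and 17.9 ± 3.65 TPM in DSS (SD, n = 4 each, limma adjusted p = 0.00512). Erbb3, the most abundant of the list, did not pass, at 114 ± 5.93 TPM in DSS + GAA and 98.7 ± 28.5 TPM in DSS (log2 fold change 0.25, limma adjusted p = 0.331). Aqp4 did not pass either. Aqp11 minus the epithelial list averaged -7.17 ± 0.63 in DSS + GAA and -7.20 ± 0.33 in DSS (difference 0.03, exact p = 1.0, adjusted 1.0).

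**Figure D3:**
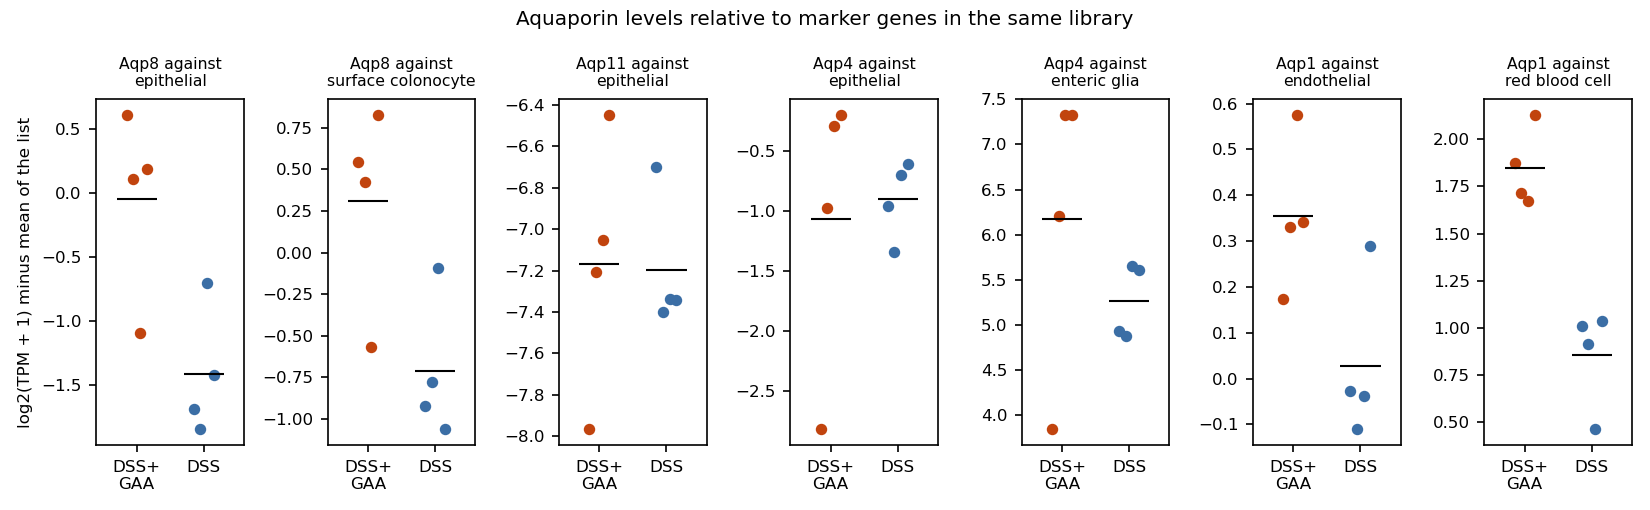
Level of each tested aquaporin relative to a marker list in the same library, as log2(TPM + 1) minus the list mean; points are libraries, bars are group means, DSS + GAA in orange and DSS in blue, and each panel has its own y axis. Aqp8 against epithelial genes averages -0.04 in DSS + GAA and -1.41 in DSS, Aqp1 against red blood cell genes is fully separated, and DSS + GAA replicate 1 is the low point of the Aqp4 panels.

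Salt transport sets the gradient that water follows, so 41 genes of colonic salt and water transport were examined beside the aquaporins. Of 40 tested, 12 were higher, 5 were lower and 23 did not pass, with a median log2 fold change of 0.30, against 5.96% higher, 28.2% lower and a median of -0.25 over all tested genes. Atp12a, the colonic proton and potassium pump, was 978 ± 152 TPM in DSS + GAA and 259 ± 79.8 TPM in DSS (SD, n = 4 each; log2 fold change 1.95, limma adjusted p = 0.00431). Scnn1a, a subunit of the epithelial sodium channel, was 104 ± 4.38 TPM in DSS + GAA and 36.6 ± 6.68 TPM in DSS (1.49, limma adjusted p = 0.00305), and its partner subunits Scnn1b (-0.21) and Scnn1g (-0.43) did not pass. Atp1b1, a subunit of the sodium pump, was 2893 ± 516 TPM in DSS + GAA and 1915 ± 84.3 TPM in DSS (0.58, limma adjusted p = 0.0204). The chloride and bicarbonate exchanger Slc26a3 passed as well (0.76), and the abundant carbonic anhydrase Car4 had 3360 ± 1094 TPM in DSS + GAA and 1767 ± 1051 TPM in DSS and did not (1.05, limma adjusted p = 0.0645). Sgk1, the salt-regulating kinase, fell to 54.1 ± 22.3 TPM in DSS + GAA, against 217 ± 72.8 TPM in DSS (-2.02, limma adjusted p = 0.00601). Nedd4l, the ubiquitin ligase that removes sodium channels, fell to 29.9 ± 5.96 TPM in DSS + GAA, against 68.7 ± 15.2 TPM in DSS (-1.16, limma adjusted p = 0.00591). The Aqp8 fold change of 1.70 lay between those of Scnn1a and Atp12a. Leaving out DSS + GAA replicate 4 or DSS replicate 1 gave 6 higher genes, leaving out DSS + GAA replicate 2 or DSS replicate 2 gave 7, and leaving out DSS replicate 1 gave 3 lower genes.

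Genes of the response to cell swelling and shrinkage were also examined. Of 17 tested, 1 was higher, 10 were lower and 6 did not pass, where 5.96% of all tested genes were higher, 28.2% were lower and 82.5% of all calls were lower. The list stood at a median log2 fold change of -0.60, which is -0.35 relative to all tested genes. They include subunits of the volume-regulated anion channel: Lrrc8a was 17.6 ± 2.24 TPM in DSS + GAA and 28.8 ± 1.29 TPM in DSS (SD, n = 4 each; -0.69, limma adjusted p = 0.00616), Lrrc8b had a log2 fold change of -0.84 (limma adjusted p = 0.00655) and Lrrc8d one of -0.90 (limma adjusted p = 0.00585). Slc6a6, the taurine transporter, was 33.0 ± 6.07 TPM in DSS + GAA and 70.2 ± 14.8 TPM in DSS (-1.06, limma adjusted p = 0.00621). The most abundant of the list, the amino acid transporter Slc38a2, fell (-0.71, limma adjusted p = 0.0144), and Akr1b3, which makes sorbitol, did not pass (-0.13). Between 4 and 6 of these genes were lower once libraries were rescaled, with 5 under trimmed mean scaling. The single higher gene, Hspa4l (0.73), was lost without filtering and without any of 5 libraries.

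Glycerol handling genes, the partners of the aquaglyceroporins, mostly did not pass, at 0 higher, 2 lower and 16 not passed of 18 tested, where 5.96% of all tested genes were higher and 28.2% lower. Their median log2 fold change was -0.10, against -0.25 over all tested genes. The counts moved with the settings: 3 were higher under median centring, 2 under quantile normalization and 1 under trimmed mean scaling, with 1 lower under each, and 6 were lower with array quality weights. Leaving out DSS + GAA replicate 1 or DSS replicate 5 gave 4 lower genes, and leaving out DSS + GAA replicate 2, DSS replicate 1 or DSS replicate 4 gave 1. Leaving out DSS replicate 5 also gave 1 higher gene. Gk, the glycerol kinase, was the most abundant at 155 ± 55.6 TPM in DSS + GAA and 142 ± 35.8 TPM in DSS (SD, n = 4 each; 0.09, limma adjusted p = 0.831). Dgat2, which completes triglyceride synthesis, had 84.0 ± 51.3 TPM in DSS + GAA and 69.6 ± 8.26 TPM in DSS (0.08, limma adjusted p = 0.877). The acyltransferases Gpam (-0.85, limma adjusted p = 0.00720) and Gpat4 (-0.47, limma adjusted p = 0.0270) were lower, while Dgat1 (-0.53, limma adjusted p = 0.0508) and Mgll (-0.82, limma adjusted p = 0.0753) missed the threshold.

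**Figure D4:**
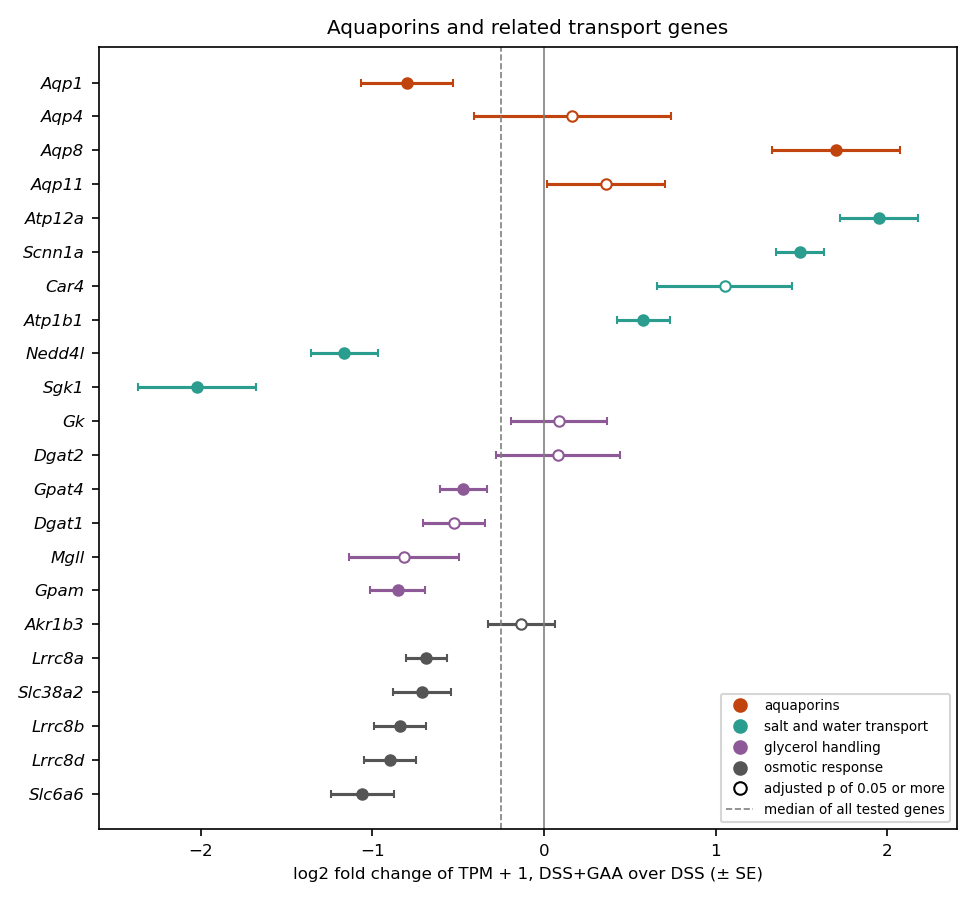
Log2 fold change of TPM + 1, DSS + GAA over DSS, with SE, for the 4 tested aquaporins and the named genes of the 3 transport lists; filled points passed limma at an adjusted p under 0.05, and the dashed line is the median of all tested genes at -0.25. Aqp8 at 1.70 stands near Scnn1a at 1.49 and Atp12a at 1.95. Aqp1 at -0.80 stands near Lrrc8b of the osmotic response list at -0.84 and Mgll of the glycerol list at -0.82.

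Within DSS + GAA, Aqp4 and Aqp11 were lowest in replicate 1, while Aqp8 and Aqp1 were highest there. After each group's mean was subtracted, the genes closest to Aqp8 over the 8 libraries were Adra2a (Pearson r = 0.957), an adrenergic receptor, Cyp4b1 (r = 0.952), a cytochrome P450, and Zdhhc9 (r = 0.944), a palmitoyltransferase. Adra2a was lower in DSS + GAA (log2 fold change -0.90, limma adjusted p = 0.0137), opposite in direction to Aqp8. The genes closest to Aqp4 were Acpp (r = 0.999), an acid phosphatase, Pradc1 (r = 0.993) and Uqcr10 (r = 0.993), a respiratory chain subunit, and none of the 3 passed between the groups. Closest to Aqp1 were the predicted genes Gm37388 (r = 0.994) and Gm38666 (r = 0.993) and Lamb2 (r = 0.993), a laminin chain of basement membranes, and all 3 were lower in DSS + GAA (log2 fold changes of -0.95 to -1.21). Closest to Aqp11 were Gm1043 (r = 0.993), Gpi1 (r = 0.993), a glycolytic enzyme, and Atxn2 (r = 0.992). These correlations are a description over 8 libraries of 2 groups, in genes picked for the highest values among 14217. An r above 0.95 was reached by 258 genes for Aqp1, 177 for Aqp4 and 132 for Aqp11, but by 2 for Aqp8.

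**Figure D5:**
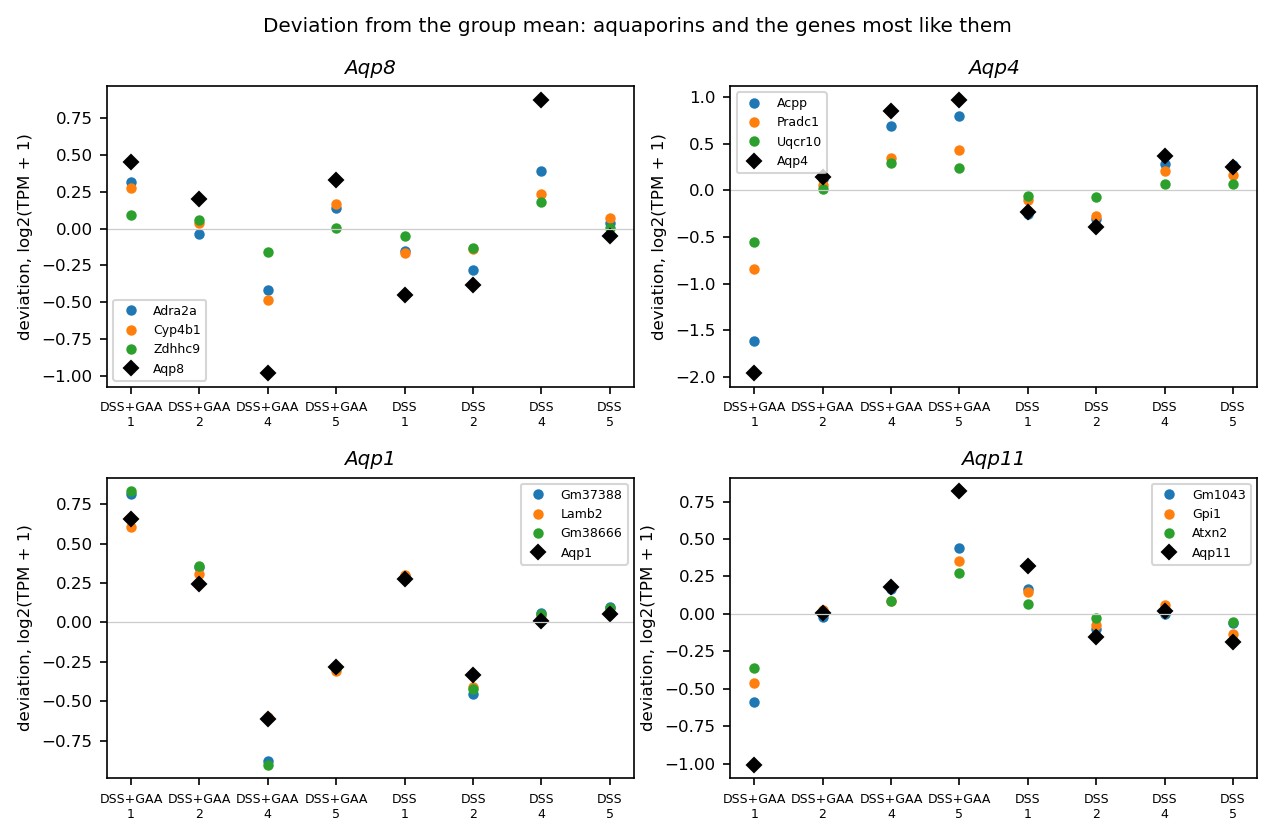
Deviation of log2(TPM + 1) from the group mean for each tested aquaporin (black diamonds) and the 3 genes most like it (coloured points), by library, DSS + GAA left and DSS right. Aqp4 and Aqp11 dip in DSS + GAA replicate 1, Aqp1 peaks there, and Aqp8 is lowest in DSS + GAA replicate 4.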

How the data were processed

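RNA sequencing of poly(A) RNA from 8 colon libraries was analysed from 1 table. The TPM values were made by the authors; the submitters' processing notes list edgeR, featureCounts, Subread, HISAT2, Bowtie2, Trimmomatic, GATK, SAMtools and build mm10, without roles or versions. The table's log2 fold change, p-value and false discovery rate are the authors' deposited values, made by a test that no label or header names. TPM holds no counts, so no count test was run. Group differences were fitted with limma 3.58.1 in R 4.3.3 on log2(TPM + 1), modelling group alone, with trended and robust empirical Bayes variances, and Benjamini-Hochberg adjustment over 14217 genes with at least 1 TPM in at least 4 libraries (4045 were left out). The script was tested on simulated data. Coordinates are from GENCODE vM21 on GRCm38 and sequences from RefSeq. Members and gene lists were chosen with earlier results of these data known. Text names all 8 members; from each transport list the 4 genes with the smallest p and the 2 with the highest mean TPM; from marker lists the most abundant and smallest-p genes as needed; and for each tested member the 3 genes of highest r. Genes outside this rule (Epcam, Slc26a3, Scnn1b, Scnn1g, Hspa4l, Cftr, Kcnq1, Kcne3, Clcn2, Ano1, Best2, Kcnn4, Ltf, Car2, Guca2b, Gucy2c, Slc4a2, Slc16a1, Cdx1, Krt19) were named after their values were seen. Marker comparisons were limited to members that passed the filter. Alternatives were pseudocounts of 0.1 and 5, no filter, at least 5 TPM, 3 rescalings, a plain empirical Bayes fit, array weights, a replicate block and leaving out each library.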

Additional observations from a re-analysis of the deposited data

Results flagged for a closer look

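Aqp5 had 0.268 TPM in DSS + GAA replicate 1, far from the other 3 DSS + GAA libraries, which were listed at 0. With the other 3 at exactly 0, any value above 0 would have stood out in this way. Depth is unknown, so the number of reads behind this value cannot be stated.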

How the results depend on the processing

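Under all 18 alternatives Aqp8 kept its direction and its call. Aqp1 kept its direction and missed the threshold at TPM of at least 5 (-0.80, adjusted p = 0.0504), without filtering (-0.80, adjusted p = 0.0587), under median centring (-0.50), quantile normalization (-0.43) and trimmed mean scaling (-0.54), and its log2 fold change was -1.02 to -0.59 when single libraries were left out. For Aqp4 leaving out single libraries gave -0.16 to 0.82, and for Aqp11 0.089 to 0.70; Aqp11 was not tested at TPM of at least 5. With a pseudocount of 0.1 the differences of the untested Aqp3, Aqp5, Aqp7 and Aqp9 were 0.55, -0.43, -0.85 and -0.47, against 0.17, -0.10, -0.19 and -0.07 with 1. Leaving out single libraries gave -0.03 to 0.31 for Aqp3 and -0.18 to 0.04 for Aqp5, whose signs thus turned. Relative to marker lists, leaving out single libraries gave 1.15 to 1.72 for Aqp8 against epithelial genes, -0.21 to 0.29 for Aqp11 against epithelial genes, -0.46 to 0.41 for Aqp4 against epithelial genes and 0.53 to 1.69 for Aqp4 against glia genes; Aqp11 against epithelial genes was -0.12 with a pseudocount of 5. Over all tested genes, limma called 847 higher and 4006 lower on TPM without rescaling. The counts were 2165 and 1308 under median centring, 1677 and 1601 under quantile normalization and 1890 and 1649 under trimmed mean scaling. Lower genes thus made up 82.5% of limma calls without rescaling and 37.7, 48.8 and 46.6% after these rescalings. These move the median gene from -0.25 to 0.052, 0.020 and -0.0040. Leaving out single libraries gave 388 to 1291 higher and 1944 to 4468 lower genes. In the salt and water list the lower genes numbered 3 under median centring, and single libraries left out gave 6 to 17 higher and 3 to 5 lower. In the glycerol list 3 genes were higher under median centring, 2 under quantile normalization, and 1 under trimmed mean scaling and with the replicate block; 1 was lower under those 4 settings and 6 with array quality weights; leaving out libraries gave 0 to 1 higher and 1 to 4 lower. In the osmotic list 4 were lower under median centring, 6 under quantile normalization and 5 under trimmed mean scaling, 0 were higher without filtering, and leaving out libraries gave 0 to 1 higher and 7 to 10 lower. Fitting the replicate number as a block changed no call of a member (Aqp8 1.70, adjusted p = 0.0299; Aqp1 -0.80, adjusted p = 0.0425). The labels do not say that shared numbers pair libraries; deviations of same-numbered libraries correlated at 0.180, -0.109, 0.146 and -0.0302 for numbers 1, 2, 4 and 5, and not every library correlated best with its own number. Depth is unknown, so values near 0 carry no counting interval. The cause of these shifts was not tested.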

Other observations

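Of the family outside the 8 members, Aqp12, known from pancreas, was listed at 0.369, 0, 0.075 and 0.378 TPM in DSS + GAA replicates 1, 2, 4 and 5 and at 0 in all DSS libraries. On these values near 0 the authors' deposited table gives Aqp12 a log2 fold change of 7.69 (false discovery rate 3.33e-05). Mip, the water channel of the lens, was listed at 0.036 to 0.225 TPM in DSS + GAA and 0 to 0.163 TPM in DSS.

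In the salt and water list, Cftr, Kcne3 and Kcnq1 were, like Aqp4 and Aqp11, at their lowest in DSS + GAA replicate 1. These 3 were picked after their values were seen. Other genes of that list were also lowest there and highest in DSS + GAA replicate 5, among them Car2, Guca2b, Gucy2c, Slc4a2 and Slc16a1. So were Cdx1 and Krt19 of the epithelial list, while Vil1 and Epcam were highest in DSS + GAA replicate 1. Some genes of the salt and water list did not share the low value in DSS + GAA replicate 1. Clcn2, a chloride channel, was at its highest there (135 TPM), and Ano1, Best2 and Kcnn4 each had a DSS library below it. Cftr, the chloride channel of crypt cells, measured 0.676, 8.26, 17.6 and 20.3 TPM in DSS + GAA replicates 1, 2, 4 and 5, against 8.43 to 16.5 TPM in DSS. Kcne3, a potassium channel subunit, measured 17.6, 104, 196 and 253 TPM in DSS + GAA, against 73.6 to 95.4 TPM in DSS. Its partner Kcnq1 measured 1.69, 7.44, 10.5 and 15.8 TPM in DSS + GAA, against 4.72 to 5.71 TPM in DSS. In all 3, as in Aqp4 and Aqp11, DSS + GAA replicate 1 was the lowest of the 8 libraries and replicate 5 the highest. None of the 3 passed between the groups (limma adjusted p = 0.591 for Cftr, 0.882 for Kcne3 and 0.576 for Kcnq1). Aqp8 had its highest value in DSS + GAA replicate 1, the library where these genes were lowest.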
